A study of Homo sapiens with 12 samples.

Results

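The 46 genes described here encode the machinery of ER to Golgi vesicle traffic, the route that STING itself takes when it leaves the endoplasmic reticulum (ER). They were chosen by name, from their role in the pathway, with no threshold on a measured value. Earlier results of these data were known at the time, so comparisons of the members with all genes are descriptions. The list holds 9 genes of the COPII coat, 8 of the COPI coatomer, 8 p24 cargo receptors of the TMED family and 6 small GTPases. It also holds 1 ARF regulator (ARFGAP1), 7 other cargo and retrieval receptors, and 7 tethers, SNAREs and Yip-family proteins. All 46 symbols are listed in both deposited tables, among 23284 symbols in a first experiment and 12421 in a knockout experiment.

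RNA was taken from the polysome fraction (RNA carrying several ribosomes, separated on a sucrose gradient) of HEK293 cells (derived from human embryonic kidney) 24 h after transfection with 5 ug of an empty vector or of a STING plasmid. The first experiment compared vector with STING in HEK293 cells with no genotype given. The knockout experiment compared the same plasmids across a wild-type and a PERK knockout genotype, PERK (EIF2AK3) being the ER stress kinase that phosphorylates the translation factor eIF2alpha. Each of the 6 groups has 2 libraries, 12 in all. Nothing in the labels tells whether replicates came from separate cultures, or whether the knockout cells are 1 clone, so a p-value here measures the spread between libraries and no more, and that spread may be technical. Total RNA was not analysed here, so the amount of an RNA and its loading with ribosomes cannot be told apart. The series asks which RNAs cells with ectopic STING translate, and whether PERK bears on it.

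Cargo leaves the ER in vesicles coated with COPII, which SAR1 GTPases recruit and which SEC24 loads with cargo inside a SEC13 and SEC31 cage. Coatomer, the COPI coat, is recruited by ARF GTPases and returns receptors and escaped ER residents from the Golgi. The p24 proteins, SURF4, the LMAN lectins and the KDEL receptors shuttle between both compartments as cargo adaptors. In the STING pathway, exit from the ER in COPII vesicles precedes signalling at the Golgi, and COPA and SURF4 are known for returning STING to the ER.

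TMEM173, the older symbol of STING, stood at 14.9 and 13.8 FPKM (mapped fragments scaled by transcript length and library size) in the first vector libraries and at 65157 and 69253 in the STING libraries. The knockout experiment had 41812 and 40660 with STING in the wild type, and 10512 and 7338 with STING in the knockout, a ratio of 4.62 between the group means, against 23.1 to 43.8 in the 4 vector libraries. EIF2AK3 stood at 0.291 to 0.465 FPKM in the first experiment and at the table's floor of 1 in all but 1 library of the knockout experiment (1.15), so the knockout could not be checked from its RNA. Genes of other cell types were near 0 in the first experiment: PTPRC, CD3E, APOB and CDH5 were listed at 0 in each library of the first experiment, and CD68, COL1A1, COL3A1, PECAM1 and ALB stood at 0.823 or less. In the knockout experiment, where the floor is 1, CD68 stood at 1.32 to 2.77 and COL1A1 at 1 to 1.75. These levels overlap those of the lineage genes named next. The other 7 genes of other cell types are not listed among the symbols of the knockout experiment. Of the HEK293 lineage genes, LIN28B, NEFL and INA stood at 1.51 to 16.9 FPKM in all libraries, while PAX2 reached at most 1.47 and NEFM at most 3.24. The deposited tables give no read totals, so the absolute depth is unknown.

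Promoter sequences were looked at because the ER stress factors XBP1 and ATF6 act through sites with the core ACGTG, and ATF4, the factor downstream of PERK, through an element written TGATG, any base, AA. RefSeq promoters (GRCh38.p14, 250 bases before to 50 after a gene's start) matched 39 of the 46 genes, which have 52 promoters. ACGTG, searched on both strands, occurred in 28 of the 39 genes (71.8%) and 35 of the 52 promoters (67.3%), against 24.9% of all 27305 genes, 21.4% of all 35116 promoters and 34.2% of the 6673 matched genes tested in the first experiment. The median promoter GC content was 66.5% for the 46 genes, 65% for the tested genes and 58.7% for all promoters. By class, ACGTG was found in 7 of 8 COPII and 7 of 8 COPI genes, 4 of 6 p24 genes, 5 of 6 tethers, SNAREs and Yip genes, 3 of 6 other receptors and 2 of 5 small GTPases.

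Of the 8 matched genes that fell with STING, as described next, 6 held ACGTG, and so did 22 of the 31 other matched genes (71.0%). Counted by promoter, it was in 6 of 12 (50%) and in 29 of 40 (72.5%). Windows of 45 bases around the match are shown for 3 genes that fell (TMED10, MCFD2, GOSR2) and 3 that did not pass the test (TMED2, SURF4, SEC24C), chosen after their values were seen, with ACGTG in capitals, 5′ to 3′ on the gene's strand. They lie at chr14:75176617-75176661 (TMED10, minus strand), chr2:46915908-46915952 (MCFD2, minus), chr17:46922948-46922992 (GOSR2, plus), chr12:123584437-123584481 (TMED2, plus), chr9:133376089-133376133 (SURF4, minus) and chr10:73744280-73744324 (SEC24C, plus). The match begins 29, 126, 192, 95, 53 and 72 bases before the start of these genes, in the same order.
TMED10: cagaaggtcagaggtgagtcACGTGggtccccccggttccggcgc
MCFD2: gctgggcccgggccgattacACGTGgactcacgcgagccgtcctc
GOSR2: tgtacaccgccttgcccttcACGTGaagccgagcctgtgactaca
TMED2: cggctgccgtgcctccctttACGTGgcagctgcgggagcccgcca
SURF4: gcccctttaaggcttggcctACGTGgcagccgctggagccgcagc
SEC24C: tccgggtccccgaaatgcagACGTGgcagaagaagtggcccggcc
In TMED10, MCFD2 and GOSR2 a C precedes the match, so both strands hold ACGTG there, the 2 matches overlapping. The same overlap occurs in SEC24A and SEC16A, which are not shown and are not among the genes that fell. TMED3, ARF1 and YIF1A, which fell and held ACGTG, are not shown either. Only windows wholly before the start were read. How often this overlap occurs in the members, the tested genes or all promoters was not counted. The ER stress response element (ERSE) occurred in 0 of the 39 genes, against 0.0916% of all genes. The ATF4 element occurred in 1 of 39 (2.56%, MCFD2), against 4.46% of all genes and 2.41% of the matched genes tested in the first experiment.

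With STING in the first experiment, the members that fell were mostly cargo receptors and small GTPases, while no coat subunit passed the test in either direction. Most coat genes were low and had larger standard errors, as given below. Of 44 members tested (SEC24D and SEC16A were below a mean of 1 FPKM), 11 fell and 0 rose by limma at an adjusted p under 0.05. Over all 9464 genes tested, 9.29% fell and 2.51% rose. When only genes with a mean of 5 FPKM or more were tested, a level all 11 reach, 18.4% of them fell. The 11 were the p24 receptors TMED3, TMED4, TMED9 and TMED10, the GTPases ARF1, ARF4 and ARF5, the receptors MCFD2 and KDELR1, the SNARE GOSR2 and the Yip protein YIF1A. The members' median log2 change, on the log2(FPKM + 1) scale, was -0.30, against -0.05 over all genes, and 28 of 44 were negative, against 54.0% of all genes. With quantile normalization the medians were -0.09 and 0.02, 25 of 44 were negative, and 4 members passed. Without either of the STING libraries 0 members passed, although 15 (without library 1) and 13 (without library 2) had an unadjusted p under 0.05; without vector library 2, 6 passed.

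The p24 proteins are small transmembrane receptors that bind COPII and COPI through their tails and form hetero-oligomers. TMED10 had 49.9 and 56.1 FPKM in the vector libraries, 24.9 and 24.7 in the STING libraries, a log2 change of -1.06 ± 0.15 (SE; limma adjusted p = 0.00552). TMED4 had 332 and 376 FPKM in the vector libraries, 212 and 198 in the STING libraries (log2 change -0.79 ± 0.11, limma adjusted p = 0.0055), and TMED3 had 566 and 624 against 329 and 367 (-0.77 ± 0.11, limma adjusted p = 0.00545). In all 3 genes both STING libraries lay well below both vector libraries. TMED9 moved less, from 253 and 263 to 176 and 200 FPKM (log2 change -0.45 ± 0.11, limma adjusted p = 0.0411). All 8 p24 genes had a negative log2 change, with a median of -0.54, except that under quantile normalization 1 of the 8 was positive and the median was -0.26. The smallest was TMED5, at 10.8 and 10.1 against 8.88 and 10.3 FPKM (log2 change -0.12 ± 0.20, limma adjusted p = 0.751), where the groups overlapped. TMED2, a partner of TMED10 in p24 complexes, stood at 86.9 and 101 against 69.3 and 70.7 and missed the threshold (-0.42 ± 0.13, limma adjusted p = 0.0868).

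Among the GTPases, ARF1, ARF4 and ARF5, of the ARF proteins that recruit coatomer, fell, and the SAR1 proteins that recruit COPII did not pass. ARF5 had 918 and 963 FPKM in the vector libraries, 511 and 533 in the STING libraries (log2 change -0.85 ± 0.10, limma adjusted p = 0.00299). ARF4 had 191 and 219 against 122 and 131 (-0.69 ± 0.12, limma adjusted p = 0.0111), and ARF1, the main activator of COPI assembly, had 674 and 779 against 445 and 517 (-0.59 ± 0.12, limma adjusted p = 0.0197). The vector and STING libraries of these 3 genes were far apart compared with the spread within each group. ARF3, less abundant in these cells at 12.1 to 18.7 FPKM, had a log2 change of -0.35 and did not pass. SAR1A stood at 37.7 and 36.0 against 30.8 and 24.4 FPKM (-0.41 ± 0.17, limma adjusted p = 0.17), and SAR1B at 8.81 and 9.77 against 7.53 and 6.65 (-0.35 ± 0.20, limma adjusted p = 0.315). Both SAR1 genes were lower without overlap between the groups, as were 32.8% of all genes, and neither passed the test. The 6 GTPases had a median log2 change of -0.50 and were all negative under each scaling tried. Whether the ARF and SAR1 changes differ was not tested. ARFGAP1, which switches ARF1 off on the vesicle, stood at 5.07 and 7.66 against 5.04 and 5.41 FPKM and did not pass (-0.22 ± 0.25, limma adjusted p = 0.615).

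MCFD2, the calcium-binding partner of the lectin LMAN1 in the export of coagulation factors, had 29.0 and 32.7 FPKM in the vector libraries, 15.7 and 16.1 in the STING libraries (log2 change -0.91 ± 0.17, limma adjusted p = 0.0139). LMAN1 itself, at 7.16 and 7.56 against 7.33 and 8.37, had a log2 change of 0.08 ± 0.20 (limma adjusted p = 0.839), the highest of the 7 receptors. Whether the changes of these partners differ was not tested. KDELR1, the most abundant of the receptors that retrieve ER proteins, stood at 354 and 435 against 236 and 264 (-0.65 ± 0.13, limma adjusted p = 0.0186). KDELR2 and KDELR3 had log2 changes of -0.45 and -0.63 and missed the threshold (limma adjusted p = 0.0616 and 0.0634). All 3 KDEL receptors lay lower with STING in each library. SURF4, at 64.0 and 70.5 against 50.9 and 48.6 FPKM, missed it as well (-0.43 ± 0.14, limma adjusted p = 0.0873). In 6 of the 7 receptors the STING libraries lay below both vector libraries, LMAN1 being the exception; 32.8% of all genes did so.

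YIF1A, a Golgi membrane protein of the Yip family, had 586 and 633 FPKM in the vector libraries, 310 and 337 in the STING libraries (log2 change -0.91 ± 0.11, limma adjusted p = 0.00301). GOSR2, a SNARE of the cis-Golgi, stood at 29.1 and 22.4 against 16.1 and 13.4 (-0.76 ± 0.20, limma adjusted p = 0.0483). USO1, the p115 tether that catches COPII vesicles, lay on the other side, at 1.66 and 2.26 with vector and 4.64 and 3.12 with STING (0.71 ± 0.27, limma adjusted p = 0.133). The class therefore spread from -0.91 to 0.71, with 2 of 7 past the threshold. The other SNAREs, STX5, BET1 and SEC22B, and YIPF5 had log2 changes from -0.52 to 0.24.

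**Figure D1:**
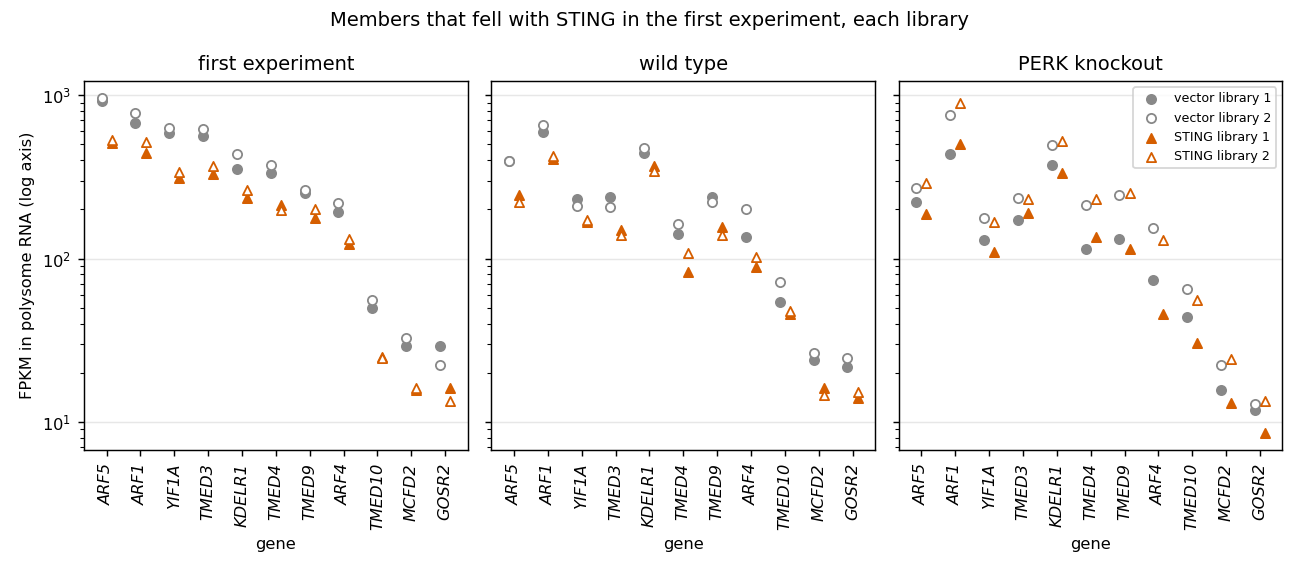
FPKM in polysome RNA (log axis) of the 11 genes that fell in the first experiment, in each library of the first experiment, wild-type cells and PERK knockout cells; circles are vector, triangles STING, filled for library 1 and open for library 2. Both STING libraries sit below both vector libraries for all 11 genes in the first experiment, where they were selected for falling, and in wild-type cells, and for 0 of 11 in knockout cells, against 32.8%, 52.3% and 21.9% of all genes.

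The coats gave a different picture, with values mostly at or above those of the vector and none past the threshold. The coat genes tested other than SEC13, COPE and COPZ1 had an SE of 0.23 to 0.40. The 11 genes that fell had one of 0.10 to 0.20, so a coat change of the same size was harder to call. SEC24C, a cargo-binding subunit of COPII, had 1.21 and 1.93 FPKM in the vector libraries, 2.85 and 3.72 in the STING libraries (log2 change 0.74 ± 0.27, limma adjusted p = 0.116). SEC13, shared by COPII and the nuclear pore, had the smallest change of its class, at 73.5 and 74.3 against 84.7 and 73.4 (0.09 ± 0.13, limma adjusted p = 0.705). All 7 COPII genes tested had a positive log2 change under each scaling, with a median of 0.34, and in 6 of them both STING libraries lay above both vector libraries, where 24.2% of all genes did so. The separation was of a few FPKM at most, since the COPII genes other than SEC13 are low. The untested SEC24D stood at 0.222 and 0.899 against 1.38 and 1.34 FPKM, and SEC16A, the organiser of ER exit sites, at 0.324 and 0.464 against 0.334 and 0.292.

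In coatomer, COPG1 (gamma subunit) stood at 3.99 and 3.30 against 5.35 and 7.54 FPKM (log2 change 0.67 ± 0.25, limma adjusted p = 0.125). COPZ1 (zeta subunit) stood at 149 and 145 against 124 and 114 (-0.30 ± 0.12, limma adjusted p = 0.136). These subunits went in opposite directions, neither past the threshold. The 8 subunits had a median of 0.29 and divided by level: COPZ1 and COPE, the subunits above 100 FPKM, had log2 changes of -0.30 and -0.23, while COPA, COPB1, COPB2, COPG1 and ARCN1, between 2.21 and 7.54 FPKM, lay between 0.26 and 0.67. COPG2, at 2.06 and 0.825 against 2.12 and 0.633, was at -0.06. Among all members, SEC23A, SEC24C, COPG1 and USO1 were higher at an unadjusted p under 0.05, and 19 were lower, against 8.82% and 18.9% of all genes.

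Level moved with direction over the whole table as well, and its part in the difference between coats and receptors was not tested. Genes with a mean of 1 to 5 FPKM had a median log2 change of 0.05 (45.7% negative of 4168), and genes of 100 FPKM or more one of -0.35 (78.9% negative of 1025). The members followed the same order with a wider span: 11 at 1 to 5 FPKM had a median of 0.34, 13 at 5 to 20 FPKM one of -0.22, 8 at 20 to 100 FPKM one of -0.44, and 12 at 100 FPKM or more one of -0.62. The 11 genes that fell included 8 of the 12 members at or above 100 FPKM and 3 of the 8 between 20 and 100, and none below. The share of all genes that fell within each of these levels was not counted. When only genes with a mean of 5 FPKM or more were tested, 18.4% of all genes fell and 60.6% were negative. Of the 33 members at that level 27 were negative, and KDELR2 and KDELR3 passed besides the 11. Of the 7 COPII genes tested, 6 had a mean below 5 FPKM.

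**Figure D2:**
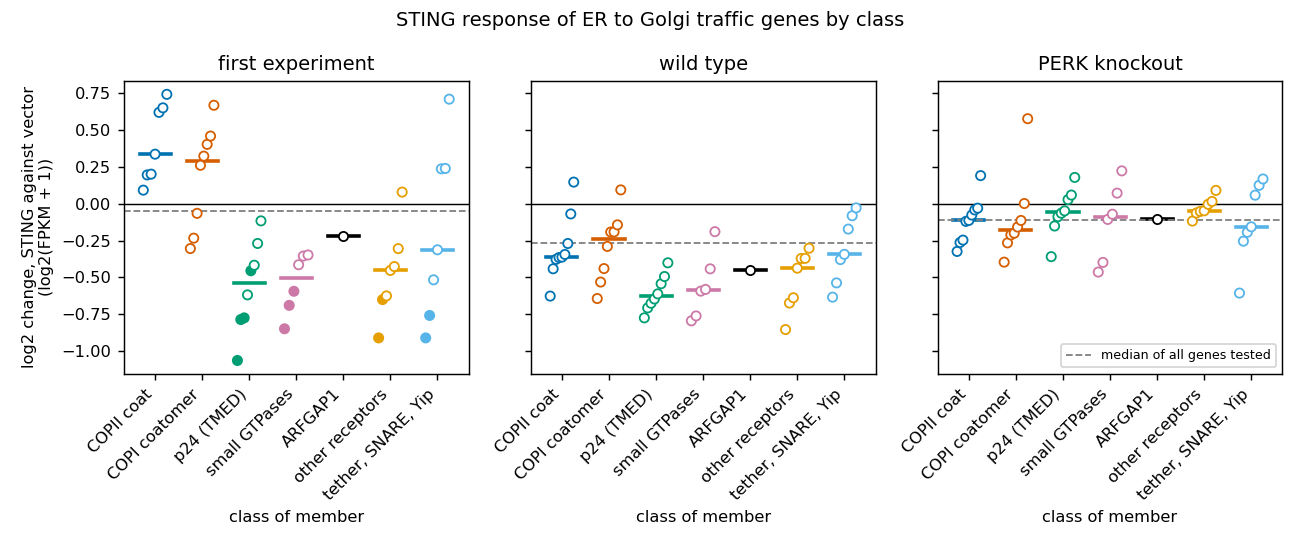
Log2 change of STING against vector, log2(FPKM + 1) scale, for each member by class, in the first experiment, wild-type cells and PERK knockout cells; filled points passed limma at an adjusted p under 0.05, coloured bars are class medians and the dashed line is the median of all genes tested. The COPII and COPI medians lie above 0 (0.34 and 0.29) and the p24 and GTPase medians below (-0.54 and -0.50) in the first experiment, and in knockout cells all class medians lie between -0.18 and -0.05.

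In wild-type cells of the knockout experiment, 0 of 46 members passed limma in either direction, and 4 (SEC24C, TMED3, ARF5, GOSR2) were lower at an unadjusted p under 0.05. Of all 12254 genes tested, 0.00816% passed as higher and 0 as lower, and 0.441% were higher and 12.4% lower at an unadjusted p under 0.05. This table does not name its unit and was read as FPKM with values under 1 listed at 1. The members' median log2 change was -0.44 against -0.27 over all genes, and 44 of 46 were negative against 80.1% of all genes. At a mean of 5 FPKM or more the medians were -0.47 and -0.37, and 38 of 38 members were negative against 91.0% of genes. Median-of-ratios scaling moved the median of all genes to 0.05, and with it 28 of 46 members were negative against 42.7% of all genes. Both STING libraries lay below both vector libraries for 33 members and above for 1 (SEC24A), against 52.3% and 3.31% of all genes.

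The p24 receptors and the GTPases again had the lowest class medians, -0.63 and -0.59, which are -0.36 and -0.32 relative to the median of all genes. Relative to the median of genes with a mean of 5 FPKM or more they are -0.26 and -0.22. The p24 genes were negative in 8 of 8 and the GTPases in 6 of 6 as deposited; with median-of-ratios scaling these counts were 8 and 5. The COPII median was -0.36 and the COPI median -0.24, which are -0.09 and 0.03 relative to all genes, and the COPI median turned to 0.09 with that scaling. The other receptors and the tethers, SNAREs and Yip proteins had medians of -0.44 and -0.34, the latter turning to 0.01.

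SURF4 had the lowest value of the members, at 54.6 and 76.9 FPKM with vector and 36.2 and 34.7 with STING (log2 change -0.85 ± 0.43, limma adjusted p = 0.411). ARF4 stood at 136 and 202 against 88.6 and 102 (-0.79 ± 0.51, limma adjusted p = 0.458), and TMED2 at 69.4 and 92.3 against 42.7 and 50.4 (-0.77 ± 0.49, limma adjusted p = 0.455). These 3 genes were lower without overlap, as were 52.3% of all genes, but the vector libraries were up to 1.48 apart as a ratio of library 2 to library 1. COPB1 (beta subunit of coatomer) stood at 7.99 and 13.4 against 6.04 and 6.53 FPKM (-0.64), GOSR2 at 21.7 and 24.7 against 14.0 and 15.2 (-0.63), and SEC24C at 6.47 and 7.78 against 4.82 and 3.73 (-0.63), the opposite direction to SEC24C in the first experiment.

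At the other end of each class, SEC24A stood at 1.92 and 2.19 against 2.29 and 2.48 FPKM (log2 change 0.15 ± 0.18, limma adjusted p = 0.682). COPG2 stood at 1.13 and 2.70 against 1.63 and 2.43 (0.09), STX5, the Golgi syntaxin, at 7.76 and 8.66 against 10.0 and 6.38 (-0.03), and SAR1B at 8.87 and 8.48 against 6.70 and 8.35 (-0.19). These values overlapped between groups except in SEC24A and SAR1B. KDELR3 stood at 10.8 and 9.42 against 9.21 and 6.93 FPKM (-0.30), and TMED10, the p24 gene with the strongest fall in the first experiment, was the least negative of its class at 53.9 and 71.6 against 45.8 and 47.9 (-0.40 ± 0.32, limma adjusted p = 0.529).

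The 11 genes that fell in the first experiment had in wild-type cells of the second a median log2 change of -0.63, which is -0.37 relative to all genes. All 11 were negative and in all 11 both STING libraries lay below both vector libraries, against 80.1% and 52.3% of all genes. At a mean of 5 FPKM or more, a level all 11 reach, 91.0% of genes were negative, so the count of negative values is near that of the table. With median-of-ratios scaling 9 of 11 were negative and with quantile normalization 11 of 11. ARF5 stood at 394 and 397 against 245 and 221 FPKM (-0.76 ± 0.23), TMED3 at 237 and 208 against 150 and 140 (-0.61 ± 0.21), and MCFD2 at 23.8 and 26.3 against 16.0 and 14.6 (-0.67 ± 0.30), with limma adjusted p of 0.384, 0.384 and 0.395. Their vector libraries were close together and the separation from STING was clear in each. TMED4 stood at 142 and 163 against 82.7 and 108, TMED9 at 238 and 222 against 155 and 139, and ARF1 at 593 and 653 against 408 and 423 FPKM. YIF1A stood at 233 and 211 against 168 and 172, and KDELR1 had 443 and 473 against 366 and 342, the smallest of the 11 with a log2 change of -0.37.

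Across the 44 members tested in both experiments, the log2 changes of the first experiment and of wild-type cells had a Pearson r of 0.47 and a Spearman rho of 0.49. The experiments have separate control libraries; genes are not independent replicates, and they share expression level and length, so this is a description. Of the 7 COPII genes, 6 were positive in the first experiment and negative in wild-type cells, where 80.1% of all genes were negative; with median-of-ratios scaling 5 of all 9 COPII genes were negative in wild-type cells, with a median of -0.03.

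**Figure D3:**
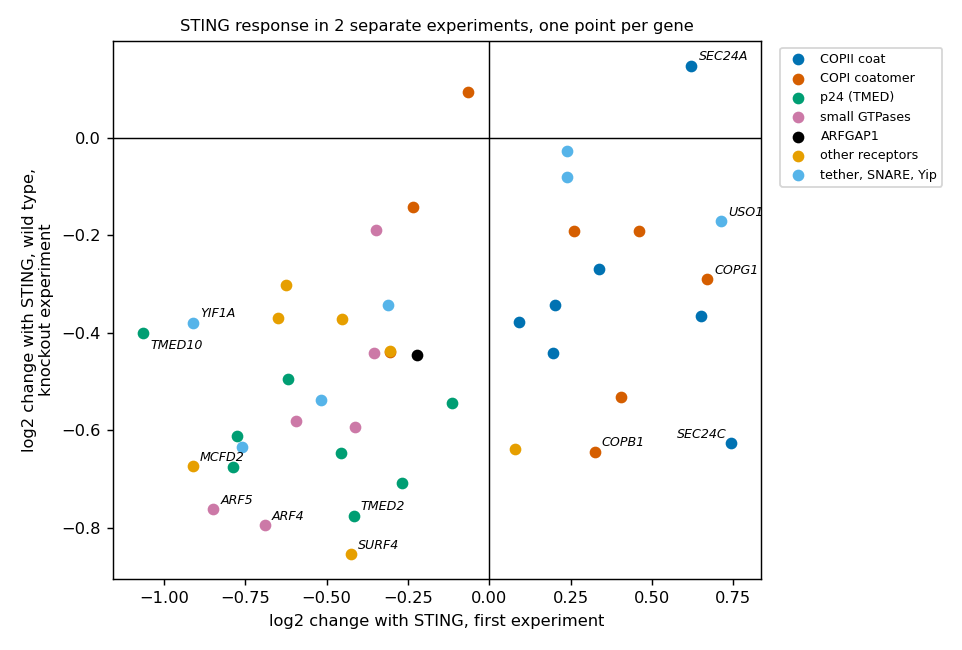
Log2 change with STING in the first experiment (horizontal) and in wild-type cells of the knockout experiment (vertical) for the 44 members tested in both, coloured by class, with labels on members named in the text. The p24, GTPase and receptor genes lie in the lower left apart from LMAN1, and the COPII genes lie to the right of 0; Pearson r is 0.47.

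In PERK knockout cells, 0 of 46 members passed limma and 0 had an unadjusted p under 0.05, against 0.00816% of all genes passing as higher, 0 as lower, and 1.06% (higher) and 6.64% (lower) at an unadjusted p under 0.05. The members' median log2 change was -0.08 against -0.11 over all genes. As deposited 33 of 46 were negative, against 65.7% of all genes; the direction turned with scaling, to 14 of 46 negative under median-of-ratios scaling and under quantile normalization. Only 2 members lay above and 2 below without overlap, against 5.66% and 21.9% of all genes. Replicate libraries of knockout cells were further apart for the members than for all genes, as given below. Their median log2 difference was 0.53 (vector) and 0.58 (STING), against 0.12 over all genes, so overlap was more likely for the members. For the 11 genes that fell in the first experiment the median was -0.07 as deposited. Of these, 8 of 11 were negative, against 65.7% of all genes, and 0 of 11 were without overlap. Their direction turned with scaling as well. With median-of-ratios scaling 3 of 11 were negative (median 0.12), against 43.9% of all genes. With quantile normalization 3 of 11 were negative (median 0.17), against 48.8%.

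Within classes, TMED4 had 115 and 212 FPKM in the vector libraries, 135 and 231 in the STING libraries in knockout cells (log2 change 0.18 ± 0.35), and TMED10 at 43.9 and 64.8 against 30.6 and 55.9 (-0.36 ± 0.32). ARF1 stood at 436 and 754 against 504 and 892 (0.22 ± 0.33), and ARF4 at 73.6 and 154 against 45.6 and 129 (-0.46 ± 0.51). In each of these 4 genes library 2 was the higher of its group and the groups overlapped. SURF4 and LMAN1 showed the same pattern. SURF4 stood at 36.0 and 67.4 against 29.6 and 69.3 (-0.12), and LMAN1 at 5.33 and 11.5 against 5.45 and 12.9 (0.09). SEC22B, a SNARE of ER to Golgi vesicles, stood at 15.7 and 30.7 against 10.8 and 18.5 (-0.61 ± 0.37), the lowest value of the members, and STX5 at 6.63 and 5.76 against 6.94 and 7.21 (0.17).

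Among the coats in knockout cells, SEC24A stood at 1.82 and 2.21 against 1.46 and 1.36 FPKM (-0.32 ± 0.18), and SEC16A at 1.22 and 1.83 against 1.72 and 2.01 (0.19 ± 0.20). The groups were apart in SEC24A and overlapped in SEC16A. COPB2 (beta' subunit) stood at 4.23 and 6.22 against 1.79 and 6.82 (-0.40 ± 0.47), where STING library 1 alone was low. COPG2 stood at the floor of 1 and at 2.0 against 2.56 and 2.76 (0.58 ± 0.32), and this was the highest value of any member in these cells. The limma adjusted p of these 4 genes were 0.737, 0.867, 0.892 and 0.737.

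The replicate libraries of knockout cells stood apart for these genes more than for the rest of the table. Library 2 was above library 1 in 43 of 46 members with vector and in 42 of 46 with STING, with a median log2 difference of 0.53 and 0.58, against 0.12 over all genes in both groups; 60.1% and 59.5% of all genes were higher in library 2. TMED2 had 37.7 and 92.8 FPKM in the vector libraries, 37.1 and 88.1 in the STING libraries, so that the replicates differed 2.46-fold and 2.37-fold and the group means hardly at all. In the other groups the median log2 difference of the members was 0.16 (first vector), 0.00 (first STING), 0.19 (wild-type vector) and 0.06 (wild-type STING). The members' median change in knockout cells was -0.38 without vector library 1, 0.16 without vector library 2, 0.20 without STING library 1 and -0.37 without STING library 2. Each of these values sets groups against each other that hold unequal parts of library 1 and library 2.

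**Figure D4:**
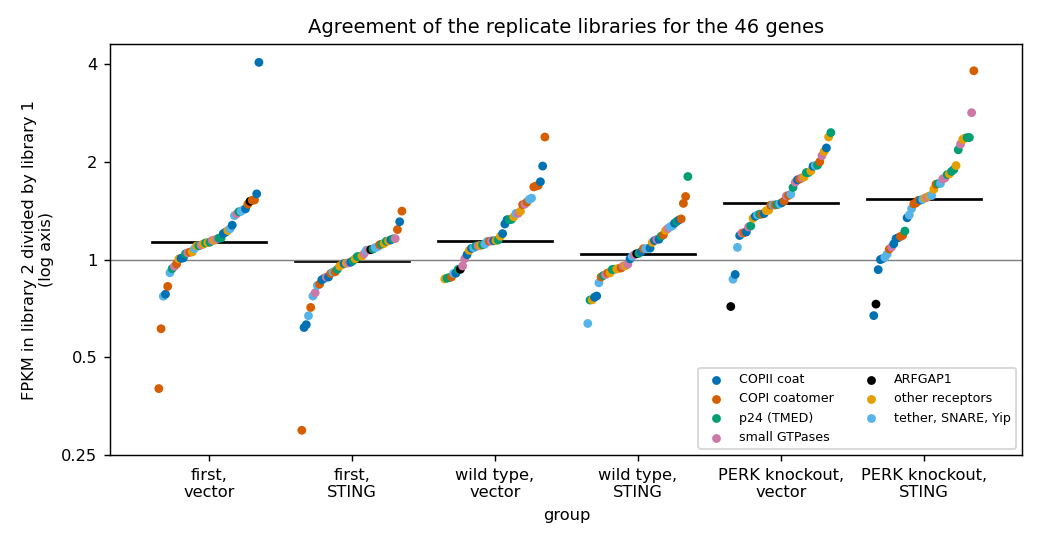
FPKM in library 2 divided by FPKM in library 1 (log axis) for each of the 46 genes in the 6 groups, coloured by class; black bars are medians and the grey line marks equal values. In both knockout groups nearly all points lie above 1 (43 and 42 of 46), while first STING and wild-type STING centre on 1.

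The difference between the STING effects of the genotypes (knockout minus wild type) passed limma for 0 of 46 members and for 0 of 12254 genes. An unadjusted p under 0.05 was reached by 0 members, against 3.04% (higher) and 0.832% (lower) of all genes. The difference was below 0 in 6 of 46 members, against 33.4% of all genes, and the median was 0.33 against 0.13; with median-of-ratios scaling it was below 0 in 11 of 46 against 52.8% of all genes, whose median moved to -0.02. By class the median difference was 0.56 for p24 receptors, 0.43 for other receptors, 0.33 for GTPases, 0.33 for the COPII coat, 0.22 for coatomer and 0.22 for tethers, SNAREs and Yip proteins. It was positive in 8 of 8 p24 genes as deposited and in 7 of 8 with either scaling.

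The highest differences were those of TMED4, 0.85 (95% interval -0.30 to 2.01), and ARF1, 0.81 (-0.27 to 1.89). SURF4 followed with 0.74 (-0.68 to 2.15), LMAN1 with 0.73 (-0.70 to 2.16) and TMED2 with 0.73 (-0.89 to 2.34). TMED3 had the narrowest of the high ones, 0.67 (-0.02 to 1.36), and ARF5 was at 0.69 (-0.07 to 1.46). All of these intervals include 0. TMED10, which fell most in the first experiment, had a difference of 0.04 (-1.01 to 1.09). The intervals allow both no difference and one as large as the wild-type effect. STING RNA was 4.62 times higher in wild-type than in knockout cells, and genotype and STING level cannot be told apart in this comparison.

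Against wild type with vector alone, 0 members passed limma in knockout cells, where 0.0490% of all genes passed, 0.0326% as higher and 0.0163% as lower. The members' median was -0.32 against -0.09 over all genes, and 41 of 46 were negative against 60.6%; with median-of-ratios scaling 30 of 46 were negative. SEC16A (log2 difference -0.49), ARF5 (-0.69) and GOSR2 (-0.86) were lower and 0 members higher at an unadjusted p under 0.05, against 7.99% and 4.38% of all genes. Without overlap 10 members were lower and 0 higher, against 25.8% and 12.5%. With STING in both genotypes 0 members passed, against 1.75% of all genes, 1.21% higher and 0.547% lower, and the median was 0.04 against 0.02. At an unadjusted p under 0.05, TMED4 (0.89) and TMED3 (0.53) were higher and SEC24A (-0.49) was lower in knockout cells, against 10.3% higher and 7.10% lower over all genes. Without overlap 8 members were higher and 4 lower, against 24.8% and 20.6% of all genes.

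FPKM is scaled to length, so paralogues can be compared by level. ARF1 held 37.5% to 66.3% of the summed FPKM of ARF1, ARF3, ARF4 and ARF5 over the 12 libraries, ARF5 21.5% to 51.1%, ARF4 6.00% to 15.5% and ARF3 0.755% to 4.02%. KDELR1 held 74.3% to 81.2% of the KDEL receptors, with KDELR2 at 16.8% to 22.4% and KDELR3 at 0.926% to 3.55%. SAR1A held 63.3% to 81.1% of SAR1. Of the p24 genes, TMED3 held 24.2% to 37.3%, TMED9 15.6% to 28.8% and TMED4 15.3% to 24.2%, and TMED5 and TMED7 stayed at or below 1.55%. How the authors' processing divided reads between near-identical copies and pseudogenes is not given in the sources used here, so these shares are uncertain to that extent, and the tables are not on a shared scale.

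A wider list of 80 symbols of the same pathway (RAB GTPases, TRAPP and COG tethers, golgins, ERGIC proteins, further Yip proteins and SNAREs) was read beside the members. In the first experiment 68 were tested, 8 fell and 0 rose, against 9.29% and 2.51% of all genes, so the list lay near the table as a whole, with a median log2 change of -0.16 against -0.05. The Yip protein YIF1B stood at 221 and 249 FPKM with vector and 107 and 101 with STING (-1.17 ± 0.12, limma adjusted p = 0.00179), beside its paralogue YIF1A described above. TRAPPC5 and TRAPPC2L, subunits of the TRAPP complex that activates RAB1, had log2 changes of -0.92 ± 0.10 and -1.08 ± 0.13 (limma adjusted p = 0.00196 and 0.00309). They stood at 1520 and 1580 against 795 and 837 FPKM (TRAPPC5) and at 764 and 648 against 361 and 307 (TRAPPC2L), again without overlap. Of all genes, 32.8% were lower without overlap. BCAP31, an ER membrane protein that handles membrane cargo, stood at 468 and 520 against 327 and 361 (-0.52 ± 0.11, limma adjusted p = 0.0224). The Golgi Yip proteins YIPF2 (43.3 and 48.0 against 27.5 and 27.6) and YIPF3 (119 and 120 against 73.2 and 85.0) had log2 changes of -0.71 ± 0.15 and -0.60 ± 0.13 (limma adjusted p = 0.0238 and 0.0246).

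In the knockout experiment 76 of the 80 were tested. With STING in wild-type cells 0 passed limma, 11 were lower at an unadjusted p under 0.05 (12.4% of all genes), and 73 of 76 were negative (80.1% of all genes) with a median of -0.44 against -0.27. In knockout cells 0 passed, 6 were lower at an unadjusted p under 0.05 (6.64% of all genes) and the median was -0.17 against -0.11. YIF1B had a log2 change of -0.45 in wild-type and -0.05 in knockout cells, TRAPPC5 of -0.53 and -0.04, and TRAPPC2L of -0.49 and -0.43.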

How the data were processed

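The authors aligned reads with TopHat2 2.1.1 and estimated FPKM with Cufflinks 2.2.1 on hg19, per the submitters' processing notes; the sources used here give neither annotation nor filters. The deposited table of the knockout experiment names no unit; it was read as FPKM with a floor of 1. Its protocol mentions a spike-in, which was not used here. The tables were tested separately, as deposited.

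Differences were tested with limma 3.58.1 (R 4.3.3) on values of log2(FPKM + 1). Genes needed a mean of 1 or more and could not be constant (167 symbols at the floor were left out). The model had a mean per group, eBayes with trend and robust estimation, two-sided tests and Benjamini-Hochberg adjustment over all genes tested at 0.05. All 8 libraries of the knockout table were fitted together. Such fold changes understate those of low genes. The scripts were tested on simulated data.

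Members, classes, the wider pathway list and the cell type markers were chosen with earlier results of these data known. Library values are given for each member past the threshold in any of the 6 contrasts, for the highest and lowest member of each class in each STING contrast, for up to 6 genes per direction of the wider list by adjusted p, and for TMEM173 and EIF2AK3; other members named with values were chosen after these were seen. Promoter motifs were read from RefSeq sequences of GRCh38.p14. Alternatives were pseudocounts, filters, scalings, the variance model, a replicate block, leaving out each library, fitting only the groups compared, and counting SAR1A and SAR1B with the COPII coat.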

Additional observations from a re-analysis of the deposited data

Results flagged for a closer look

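SEC24A, a cargo-binding subunit of the COPII coat, was the only member whose groups moved in opposite directions in the genotypes without overlap. Of all genes, 3.31% were higher without overlap in wild-type cells and 21.9% lower in knockout cells. The share of all genes with both was not counted. In wild-type cells SEC24A had 1.92 and 2.19 FPKM in the vector libraries and 2.29 and 2.48 in the STING libraries. In knockout cells it had 1.82 and 2.21 against 1.46 and 1.36. These values lie near the floor of 1. The difference of the STING effects was -0.47 on the log2 scale (95% interval -1.05 to 0.11, limma adjusted p = 0.966), so the difference itself did not pass the test. In the first experiment the gene stood at 0.832 and 1.01 against 2.44 and 1.54 FPKM and did not pass (log2 change 0.62 ± 0.28, limma adjusted p = 0.194).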

How the results depend on the processing

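The count of 11 members that fell in the first experiment was 7 with no filter on the mean, 4 with quantile normalization, 0 without trend and robust estimation (20 members at an unadjusted p under 0.05) and 0 to 9 when 1 library was left out; it stayed between 9 and 13 under the other alternatives. No member changed direction among the 11 under any alternative. TMED10, ARF5 and YIF1A lost their call only without either STING library or without trend and robust estimation; TMED9 and GOSR2 lost it in 8 of 12 alternatives. For the other contrasts the count was 0 under all alternatives, except that the replicate block gave 1 for knockout against wild-type cells with STING (TMED4, higher, limma adjusted p = 0.0361). The labels do not say whether libraries with the same replicate number share a batch, and the main model held no term for it. Deviations of same-numbered libraries correlated at 0.074 in the first experiment and 0.042 to 0.528 between groups of the knockout experiment. The highest value was that between the vector and STING groups of knockout cells. With the replicate block 13 members fell in the first experiment, TMED2 and KDELR2 besides the 11. Class medians moved by more than the replicate spread in 37 recomputed values and by less in 245. In knockout cells most class medians, negative as deposited, turned positive with median-of-ratios scaling. They were 0.12 for p24 receptors, 0.10 for GTPases, 0.14 for other receptors and 0.05 for the COPII coat. Tethers, SNAREs and Yip proteins were at 0.03 and coatomer at -0.002, against 0.04 over all genes. With 2 libraries a group and unknown depth, a difference that did not pass is not shown to be absent, and falls to the floor of 1 are understated.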
